A study of Mus musculus with 12 samples.

Results

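The genes described here encode ribosomal proteins: those of the cytosolic ribosome and those of the mitochondrial ribosome. They were chosen by symbol alone, as every probe set whose gene symbol begins with Rpl, Rps, Mrpl or Mrps followed by a digit, or is Rplp0, Rplp1 or Rplp2, without the kinase genes whose symbols begin with Rps6k. This gave 99 of the 15780 named genes on the array, 26 cytosolic and 73 mitochondrial. Without paralogs, pseudogenes and a binding protein gene 18 of the cytosolic genes are left. Other genes of the cytosolic ribosome, such as Rplp0 and Rpl3, had no named probe set. The cytosolic values are therefore not those of the whole ribosome. The rule used no measured value, but it was set with earlier results of these data known. The data come from 12 Affymetrix Mouse430_2 arrays of RNA from primary hepatocytes of male C57BL/6J mice aged 8 weeks, in 4 groups of 3. WT IP is RNA precipitated with an antibody against CNOT6L from wild-type cells, KO IP is the same precipitation from cells of Cnot6l knockout mice, KO Input is total RNA of the knockout cells and WT Input is total RNA of the wild-type cells. Each cell preparation was divided into an input and a precipitate, and the knockout cells were the negative control for the antibody. The titles number the replicates of each group 1 to 3 and call them biological. They do not say whether each came from a separate animal, so the p-values measure the spread of these preparations. Without pairing it is the spread between preparations, and with pairing that of the differences within a preparation or replicate number. The kind of knockout allele and the tissues in which it acts are not stated.

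CNOT6L is one of the enzymes of the CCR4-NOT complex that remove poly(A) tails from mRNA. The cytosolic ribosome translates nuclear mRNAs, and in vertebrates most of its protein mRNAs begin with a pyrimidine tract (5′TOP) through which mTORC1 controls their translation. The mitochondrial ribosome is built from proteins encoded in the nucleus and imported into mitochondria, where it makes the core subunits of the respiratory chain. Hepatocytes are rich in both, since they secrete plasma proteins and hold many mitochondria.

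Both sets carry known promoter features, which are shown here because the 2 sets are compared throughout. RefSeq promoter windows of GRCm38.p6, reaching from 250 bases before to 50 bases after the annotated start, were matched by gene identifier for 19 cytosolic and 63 mitochondrial genes. Identifiers were held to 6 digits, so those of Rps15a-ps6 and Mrpl23-ps1, which are longer, could not be matched correctly. A gene was counted if any of its windows held the feature. The pyrimidine run had to begin with C, be at least 6 bases long and start within 10 bases of the annotated start. It was present in 10 cytosolic (52.6%) and 13 mitochondrial genes (20.6%), against 21.9% of all 27025 genes with a window. The ETS-type motif CCGGAAG was present on either strand in 7 cytosolic (36.8%) and 23 mitochondrial genes (36.5%), against 9.93% of all genes with a window. The YY1-type motif AAGATGGC was present on either strand in 4 cytosolic (21.1%) and 12 mitochondrial genes (19.0%), against 3.19% of all genes with a window. The end of the first motif (AAG) is the start of the second, so that 1 stretch can hold both, and the ETS-type motif on the other strand can share its pyrimidines with a run. Each match is a description of the sequence, not of a bound factor. The stretches below run from 40 bases before the start to 20 bases from it, for members whose values are given later. Capitals mark the pyrimidine run and the ETS-type motif (CCGGAAG, or CTTCCGG where it lies on the other strand).
Rplp2 (chr7:141447611-141447670, plus strand): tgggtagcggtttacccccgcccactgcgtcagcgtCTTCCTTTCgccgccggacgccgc
Rps6 (chr4:86857348-86857407, minus strand): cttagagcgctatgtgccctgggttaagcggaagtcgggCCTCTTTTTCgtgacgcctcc
Rps9 (chr7:3704001-3704060, plus strand): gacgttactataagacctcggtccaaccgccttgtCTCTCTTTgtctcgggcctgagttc
Rpl31 (chr1:39367811-39367870, plus strand): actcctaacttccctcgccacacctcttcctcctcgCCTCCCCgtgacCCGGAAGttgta
Rpl26 (chr11:68901526-68901585, plus strand): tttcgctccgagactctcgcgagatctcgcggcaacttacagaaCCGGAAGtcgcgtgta
Mrpl3 (chr9:105053228-105053287, plus strand): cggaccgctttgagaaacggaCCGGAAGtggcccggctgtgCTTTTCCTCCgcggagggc
Mrpl52 (chr14:54426869-54426928, plus strand): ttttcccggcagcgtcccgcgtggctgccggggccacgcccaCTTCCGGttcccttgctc
Mrpl57 (chr14:57826199-57826258, plus strand): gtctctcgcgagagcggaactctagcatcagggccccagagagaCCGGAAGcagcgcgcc
Mrpl44 (chr1:79775978-79776037, plus strand): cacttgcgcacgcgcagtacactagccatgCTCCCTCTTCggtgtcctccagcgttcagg
Mrpl14 (chr17:45686309-45686368, plus strand): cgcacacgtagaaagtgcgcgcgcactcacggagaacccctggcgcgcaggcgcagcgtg

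Values are log2 expression values as deposited, 1 per gene and array, and the labels do not say how they were scaled between arrays. A difference of 1 on this scale is a change of a factor of 2. The array medians lay between 6.31 and 6.45. Cnot6l itself was not lower in the arrays labelled knockout: it was 9.11, 10.65 and 8.85 in WT IP, 9.29, 10.63 and 9.46 in KO IP, 9.12, 9.23 and 9.34 in KO Input, and 8.44, 9.51 and 9.11 in WT Input. Its difference was 0.21 for KO Input against WT Input (exact permutation test, two-sided, p = 0.7, where 0.1 is the smallest that 3 against 3 allows), so this probe set does not check the knockout labels. The position of these probes relative to the deletion is not stated, and every direction drawn from the knockout arrays below rests on their labels. Hepatocyte markers averaged 10.24 to 11.16 in WT IP, 9.99 to 10.95 in KO IP, 10.17 to 11.32 in KO Input and 10.31 to 11.46 in WT Input, and the marker averages of Kupffer and other liver cell types stayed between 4.48 and 6.07. Precipitate arrays differed from the inputs in more than single genes. In all 6 preparations the 95th percentile of the precipitate was lower than that of its input, by a log2 difference of -0.31 to -0.10, and the signal of the 3′ over the 5′ control probe set for Gapdh was 0.85 to 1.95 larger. The 5th percentile was 0.29 to 0.64 higher in each precipitate, and the SD over the array differed by -0.35 to -0.17. Spiked poly(A) controls were 4.39 to 6.09 higher and hybridization controls 2.96 to 4.94 higher. Differences between precipitate and input are therefore given beside those of all genes, and the part that RNA quality and array range had in them was not tested.

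Ribosomal protein mRNAs were among the brightest signals on these arrays. Of the 26 cytosolic genes 12 (46.2%) lay in the top 10% of probe sets by their mean over the 12 arrays, and so did 34 of the 73 mitochondrial genes (46.6%). By subunit, the 12-array means ran between 3.66 (Rpl3l) and 13.93 (Rpl26) for the 15 cytosolic large-subunit genes, with a median of 8.90. The 11 cytosolic small-subunit genes ran between 3.55 (Rps15a-ps6) and 13.31 (Rps15), with a median of 10.21. The mitochondrial sets were narrower: 48 large-subunit genes between 5.31 (Mrpl41) and 12.30 (Mrpl30), median 9.93, and 25 small-subunit genes between 5.86 (Mrps25) and 10.76 (Mrps34), median 9.84. Probe sets differ in how well they bind, so these levels are not a ranking of mRNA abundance. A gene was tested if its 12-array mean was at least 5.57, the value at percentile 40 of the array, which kept 93 members: 21 cytosolic and 72 mitochondrial. Mrps25 at 5.86 lay just inside, and Rpl21 at 5.32 and Mrpl41 at 5.31 lay just outside together with Rpl39l, Rpl3l, Rps15a and Rps15a-ps6 at 3.55 to 4.44. Members that are paralogs, near copies, pseudogenes or a binding protein, by their symbols, numbered 10. They included Rpl7l1, Rps4l, Rps24-ps3, Rps27l and Rps19bp1, the binding protein gene. Probe sets of the paralogs, near copies and pseudogenes could also bind the parent mRNA. Rplp0, Rplp1, Rpl3, Rpl5 and Rpl11 had no named probe set and were not analysed here.

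In wild-type cells most mitochondrial members had a lower signal in the CNOT6L precipitate than in the input. The median difference of the cytosolic members lay near that of all genes. For WT IP against WT Input, 61 of the 72 mitochondrial genes had a negative difference, with a median of -0.40 and a range of -1.33 to 0.78. The 21 cytosolic genes had a median of -0.14 (range -1.11 to 0.64), with 9 above 0. Among all 9496 genes tested the median was -0.11 and 41.6% were above 0. Over genes above the 60th percentile only, the median of all genes was -0.21 and the mitochondrial median -0.41. Hepatocyte markers lay lower too, with a median of -0.47 and 6 of 7 below 0. The large and small subunits of the mitochondrial ribosome had like medians, -0.40 and -0.39, and those of the cytosolic ribosome were -0.07 and -0.30. Within the 3 wild-type preparations the mitochondrial median was -0.51, -0.46 and -0.22, the cytosolic median was -0.23, -0.05 and 0.03, and the median of all genes was -0.08, -0.08 and -0.18. All 3 preparations gave a lower precipitate for 45 mitochondrial members (62.5%) and 8 cytosolic members (38.1%), against 33% of all genes. The cytosolic median turned to 0.11 without WT IP replicate 3 and was 0.0087 without paralogs, pseudogenes and binding proteins, and the mitochondrial median ran between -0.69 without WT Input replicate 3 and -0.13 without WT IP replicate 3. With quantile normalization the mitochondrial median was -0.25 and that of all genes -0.04.

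No member passed the test of WT IP against WT Input at an adjusted p under 0.05 (limma across all 12 arrays, Benjamini-Hochberg over 9496 genes), where 10 genes (0.105%) passed as higher and 0 as lower. At an unadjusted p under 0.05 there were 2 cytosolic members and 1 mitochondrial member, all lower, against 6.03% of all genes lower and 4.58% higher. When each precipitate was paired with the input of its own preparation (a replicate block), 1 cytosolic and 6 mitochondrial members were called lower and 0 higher, which is 4.76% and 8.33% of the 2 sets, against 4.61% of all genes called lower and 2.41% called higher with the same block. The arrays of the precipitate and the input did not overlap for Rps4l and Mrps5 (lower) and Rpl31 (higher), while 7.59% of all genes lay wholly lower and 7.72% wholly higher.

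Mrpl14, a large-subunit protein at the surface where the assembly factor MALSU1 docks, had the lowest difference of the mitochondrial set in both genotypes. It was 8.39, 8.72 and 7.11 in WT IP, against 9.74, 9.89 and 8.57 in WT Input. Each precipitate was lower than its own input, with overlap between the groups, and the difference was -1.33 ± 0.55 (SE; limma adjusted p = 0.411, 0.0258 with the replicate block). Rps4l, a near copy of the small-subunit gene Rps4x, was 9.81, 9.67 and 9.13 in WT IP, against 10.98, 11.12 and 9.83 in WT Input. Every precipitate was lower than its own input, by 0.70 to 1.45, and the fitted difference was -1.11 ± 0.43 (limma adjusted p = 0.382, 0.0250 with the block). Mrps23, a small-subunit protein without a bacterial counterpart, was 8.31, 8.04 and 7.13 in WT IP, against 9.14, 9.23 and 7.96 in WT Input, a difference of -0.95 ± 0.45 (limma adjusted p = 0.499, 0.0289 with the block). The groups of Mrps23 overlapped, and replicate 3 was low in both. Mrps5, another small-subunit gene, was 6.43, 7.47 and 7.34 in WT IP, against 7.77, 8.37 and 7.51 in WT Input, which lay wholly apart, and its difference of -0.80 did not pass. The other wild-type calls with the block were Mrpl19, Mrpl58, Mrpl38 and Mrpl15, at -0.89 to -0.84. Mrpl58 is a peptidyl-tRNA hydrolase built into the mitochondrial large subunit. Rps9, a small-subunit protein at the mRNA entry site, differed by -0.83 ± 0.35 and Rpl26 by -0.73 ± 0.36, and Mrpl3, whose human counterpart is mutated in a mitochondrial cardiomyopathy, by -0.68 ± 0.32. None of these 3 passed with or without the block (limma adjusted p = 0.427, 0.520 and 0.478 without it).

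A few members had a higher signal in the wild-type precipitate. Rpl31, a large-subunit protein at the exit of the peptide tunnel, was 8.05, 8.38 and 8.54 in WT IP, against 7.71, 7.81 and 7.54 in WT Input. The groups did not overlap, and the difference was 0.64 ± 0.30 (limma adjusted p = 0.474). Mrpl44, a large-subunit protein with a ribonuclease III fold, was 9.81, 10.18 and 9.58 in WT IP, against 9.29, 9.63 and 8.31 in WT Input. Its precipitate lay higher in every preparation, with overlap between the groups, and the difference was 0.78 ± 0.42 (limma adjusted p = 0.546). Mrpl22, which lines the peptide tunnel, was 11.53, 11.76 and 10.77 in WT IP, against 10.88, 10.97 and 10.10 in WT Input, a difference of 0.71 ± 0.42 (limma adjusted p = 0.587). Rpl14, Rpl17 and Mrpl52 differed by 0.46, 0.44 and 0.43, with limma adjusted p values of 0.743, 0.669 and 0.646. None of these 6 genes passed with the block either.

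**Figure D1:**
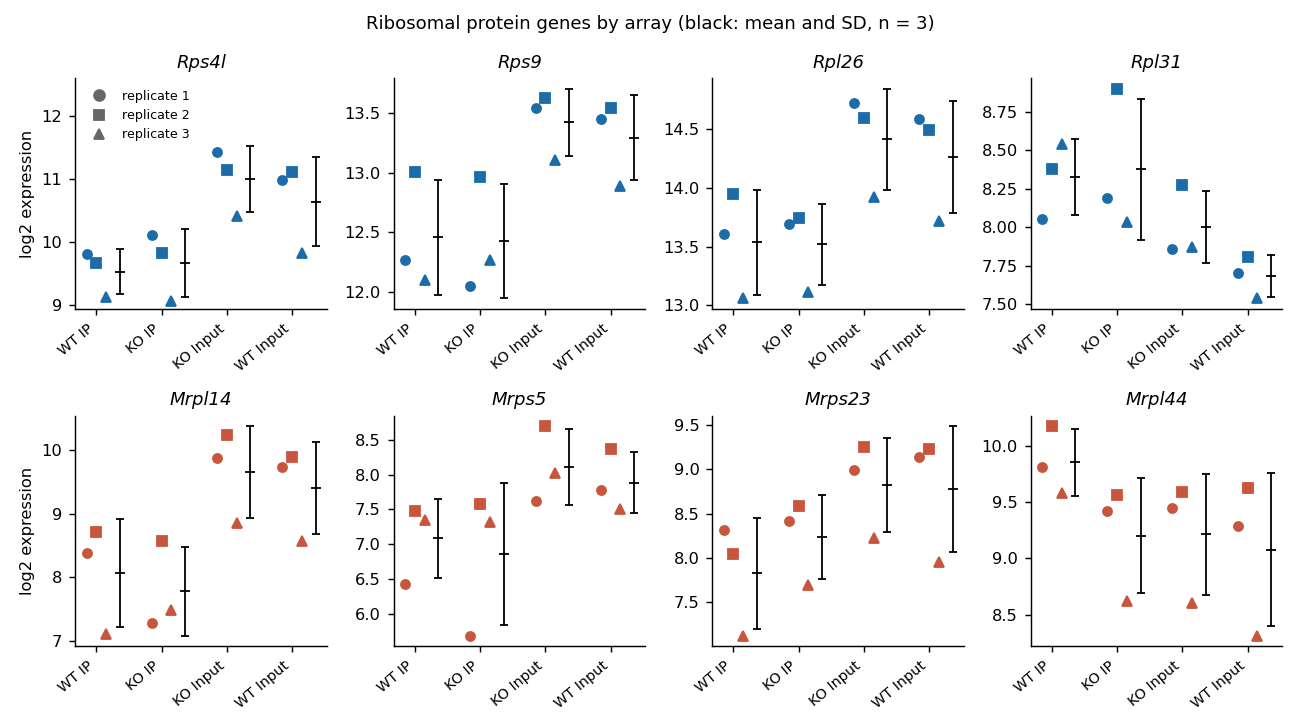
Log2 value (y axis) of 8 ribosomal protein genes on each of the 12 arrays, grouped along the x axis as WT IP, KO IP, KO Input and WT Input. Symbols are the arrays of replicates 1, 2 and 3, and black marks are the group mean and SD (n = 3). Mrpl14 and Rps4l lie lower in the precipitates of both genotypes, and Mrpl44 lies higher in WT IP (9.58 to 10.18) than in KO IP (8.62 to 9.57).

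The precipitate from knockout cells, the negative control for the antibody, also gave lower values for most mitochondrial members, at a level closer to that of all genes. For KO IP against KO Input the mitochondrial median was -0.30 (range -1.87 to 0.74, 59 of 72 below 0) and the cytosolic median was -0.14 (range -1.33 to 0.45, 8 of 21 above 0). The median of all genes was -0.21, with 34.1% above 0. Over genes above the 60th percentile it was -0.29, beside a mitochondrial median of -0.31. With quantile normalization the mitochondrial median was -0.083, the cytosolic median -0.087 and that of all genes -0.04, so the distance between the 2 sets was lost. The 7 hepatocyte markers had a median of -0.46, all below 0. All 3 preparations gave a lower precipitate for 37 mitochondrial (51.4%) and 11 cytosolic members (52.4%), against 35.3% of all genes. In the 3 knockout preparations the mitochondrial median was -0.56, -0.28 and -0.19 and the cytosolic median was -0.33, -0.22 and -0.06. No member passed the limma test, and neither did any other gene (0%), while 3 cytosolic and 5 mitochondrial members were lower and 1 mitochondrial member was higher at an unadjusted p under 0.05, against 8% of all genes lower and 2.97% higher. With the replicate block 3 cytosolic members (14.3%) and 6 mitochondrial members (8.33%) were called lower and 0 higher, against 5.28% of all genes called lower and 0.727% called higher. The arrays did not overlap for 3 cytosolic and 5 mitochondrial members that were lower and for 2 mitochondrial members that were higher, against 10.1% and 5.31% of all genes.

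Mrpl14 was 7.29, 8.58 and 7.48 in KO IP, against 9.88, 10.23 and 8.85 in KO Input. No precipitate reached the lowest input, and the difference was -1.87 ± 0.55 (limma adjusted p = 0.277, 0.0175 with the block). Rps4l was 10.12, 9.83 and 9.07 in KO IP, against 11.44, 11.15 and 10.42 in KO Input. Its preparations agreed closely, with differences of -1.31, -1.32 and -1.35, and the fitted difference was -1.33 ± 0.43 (limma adjusted p = 0.306, 0.0230 with the block). Rps9 was 12.05, 12.96 and 12.27 in KO IP, against 13.54, 13.62 and 13.10 in KO Input, a difference of -0.996 ± 0.35 (limma adjusted p = 0.342, 0.0478 with the block). Rpl26, the brightest member, was 13.69, 13.74 and 13.12 in KO IP, against 14.72, 14.60 and 13.92 in KO Input, a difference of -0.90 ± 0.36 (limma adjusted p = 0.402, 0.0394 with the block). For both genes the precipitates lay wholly lower than the inputs. Among mitochondrial members Mrps5, of the small subunit, was 5.69, 7.57 and 7.32 in KO IP, against 7.62, 8.69 and 8.02 in KO Input. Replicate 1 was the lowest precipitate, and the difference was -1.25 ± 0.51 (limma adjusted p = 0.403, 0.0482 with the block). Mrpl19 differed by -1.08 ± 0.43, Mrpl9 by -0.99 ± 0.50 and Mrpl3 by -0.96 ± 0.32, with limma adjusted p values with the block of 0.0269, 0.0288 and 0.0394. Mrpl34, at -0.99, was the other call with the block (limma adjusted p = 0.0357).

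On the higher side, Mrpl52, a protein found in mitochondrial but not bacterial ribosomes, was 11.45, 11.54 and 11.36 in KO IP, against 11.004, 10.89 and 10.23 in KO Input. The groups did not overlap, and the difference was 0.74 ± 0.30 (limma adjusted p = 0.408). Mrpl57 was 8.04, 8.08 and 7.76 in KO IP, against 7.64, 7.62 and 7.31 in KO Input, a difference of 0.44 ± 0.28 (limma adjusted p = 0.601), again without overlap. Mrpl1, Rps3, Rpl14 and Rpl31 differed by 0.54, 0.45, 0.42 and 0.37, with limma adjusted p values of 0.658, 0.773, 0.775 and 0.692. Rps3, a small-subunit protein at the mRNA entry site, stood at -0.02 without KO IP replicate 2.

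The calls with the replicate block numbered 16, all lower, in 13 genes, and Rps4l, Mrpl14 and Mrpl19 were called in both genotypes. With quantile normalization before the block 1 remained, Mrpl14 in wild type (limma adjusted p = 0.0449), while calls over all genes came to 3.49% in wild type and 0.348% in knockout. When the arrays of 1 preparation were left out, 0 remained in wild type for any of the 3 preparations, and in knockout only Mrpl14 remained, without preparation 1 (limma adjusted p = 0.0452). Calls over all genes were also fewer in these smaller fits, at 111, 1 and 31 for wild-type cells without preparations 1, 2 and 3, and at 85, 6 and 9 for knockout cells. The differences stayed of like size, with -1.07, -0.94 and -1.31 for Rps4l and -1.32, -1.41 and -1.26 for Mrpl14 in wild type.

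Across members, the precipitate minus input difference in wild-type cells followed that in knockout cells. Over the 21 cytosolic genes the Pearson correlation between the 2 genotypes was 0.915 and Spearman's rho was 0.910. Over the 72 mitochondrial genes they were 0.805 and 0.851, and over all 9496 genes 0.668 and 0.693. These are descriptions across genes of the same arrays, which are not independent, and the 2 genotypes share replicate numbers. The difference was negative in both genotypes for 54 mitochondrial members (75%) and 11 cytosolic members (52.4%), against 50.9% of all genes. No member was higher in every precipitate of 1 genotype and lower in every precipitate of the other, a pattern that 175 of 9496 genes (1.84%) showed.

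**Figure D2:**
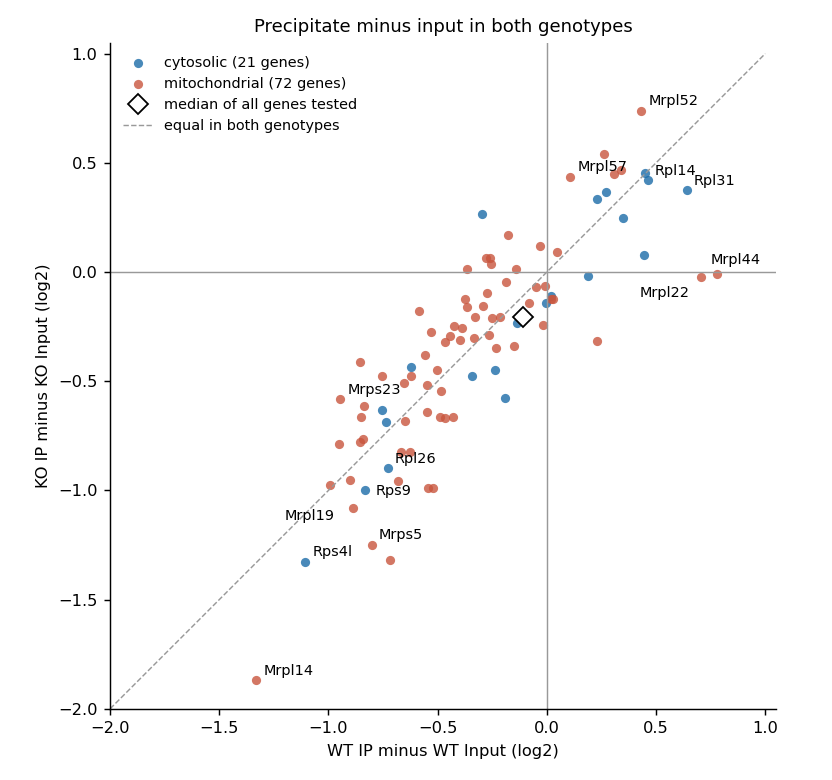
WT IP minus WT Input (x axis) against KO IP minus KO Input (y axis), in log2 units, for 21 cytosolic (blue) and 72 mitochondrial (red) genes. The diamond is the median of all genes tested, at -0.11 and -0.21. Most points lie along the dashed line of equal differences, with Mrpl14 lowest in both genotypes and Mrpl44 and Mrpl22 higher in wild type and near 0 in knockout.

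The comparison meant to account for the background of the antibody sets the precipitates of the 2 genotypes against each other, directly or after subtracting the inputs. How much of that background it removes was not tested. For WT IP against KO IP the cytosolic median was -0.06 (range -0.63 to 0.18) and the mitochondrial median was -0.18 (range -0.76 to 0.65, 18 of 72 above 0), against 0.04 and 54.1% above 0 for all genes. No member passed the limma test, where 24 genes (0.253%) passed as higher and 0 as lower, and 0 members reached an unadjusted p under 0.05, against 4.78% of all genes higher and 0.611% lower. With the replicate number as a block 0 members were called, against 2.33% of all genes called higher and 0.126% called lower. The arrays did not overlap for Mrpl44 (higher) and for Mrpl52 and Mrpl57 (lower), against 5.44% of all genes wholly higher and 1.35% wholly lower. The mitochondrial members were lower in WT IP for all 3 replicate numbers in 28 cases (38.9%), against 14.2% of all genes. The cytosolic median was 0.17 and the mitochondrial median 0.09 without WT IP replicate 3, and they were 0.13 and 0.03 without KO IP replicate 2. A fit without 1 array compares groups with unlike replicate numbers. Between arrays of the same number the mitochondrial median was -0.07, -0.19 and -0.25. The cytosolic median was then -0.04, 0.03 and -0.09. Without KO IP replicate 1, or without the arrays of number 3, the cytosolic median was 0.02 and 0.04.

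Mrpl44 was 9.81, 10.18 and 9.58 in WT IP, against 9.42, 9.57 and 8.62 in KO IP. Each wild-type precipitate was higher than all of those from knockout, and the difference was 0.65 ± 0.42 (limma adjusted p above 0.99). Mrpl57 was 7.72, 7.65 and 7.21 in WT IP, against 8.04, 8.08 and 7.76 in KO IP, a difference of -0.44 ± 0.28 without overlap. Mrpl52 was 11.14, 11.16 and 10.70 in WT IP, against 11.45, 11.54 and 11.36 in KO IP, also without overlap. Mrpl55, like these a protein that bacterial ribosomes lack, was 9.45, 9.95 and 9.30 in WT IP, against 10.03, 10.46 and 9.93 in KO IP. It was lower at every replicate number, by 0.52 to 0.63, and the difference was -0.57 ± 0.28. Mrpl54 differed by -0.76 ± 0.48, Mrps25 by 0.59 ± 0.29 and Mrpl22 by 0.50 ± 0.42. In the cytosolic set Rps6, the substrate of S6 kinase, was 8.55, 9.57 and 8.62 in WT IP, against 9.05, 9.93 and 9.08 in KO IP, a difference of -0.44 ± 0.43. Rps24-ps3 was 12.73, 11.28 and 12.79 in WT IP, against 12.76, 13.11 and 12.83 in KO IP, and its difference of -0.63 ± 0.39 was -1.83 at number 2 and -0.03 and -0.04 at the others. Rpl15 differed by -0.57 ± 0.65, and Rpl13a, Rpl17 and Rps14 by 0.18, 0.14 and 0.10. None of these 13 genes passed the test, in limma without or with the block.

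After the inputs were subtracted (the precipitate minus input difference in wild type minus that in knockout), the cytosolic median was 0.13 (range -0.57 to 0.39, 14 of 21 above 0) and the mitochondrial median was -0.07 (range -0.44 to 0.79, 29 of 72 above 0), against 0.05 for all genes. No member passed the limma test, where 1 gene (0.0105%) passed, and 0 members were called with the block, where 2 genes (0.0211%) were. At an unadjusted p under 0.05 there were 0 members, against 1.83% of all genes higher and 0.147% lower. By replicate number the cytosolic median was 0.13, 0.09 and 0.09, and the mitochondrial median was 0.07, -0.15 and -0.09. The differences of the 2 genotypes did not overlap for 2 cytosolic members, Rpl13a at 0.39 ± 0.49 and the stalk protein gene Rplp2 at 0.14, and for 4 mitochondrial members that were higher and 3 that were lower, against 7.94% and 2.58% of all genes. The 4 were Mrpl44 at 0.79 ± 0.59, Mrpl22 at 0.73 ± 0.59, Mrpl34 at 0.47 and Mrpl9 at 0.45, and the 3 were Mrps23 at -0.36, Mrpl57 at -0.33 ± 0.39 and Mrpl24 at -0.28. Mrpl44 had differences of 0.55, 0.57 and 1.25 at the 3 replicate numbers, and Mrpl22 had 0.97, 0.31 and 0.91. The cytosolic median became -0.17 without WT Input replicate 3, -0.08 without KO IP replicate 3 and -0.04 without WT IP replicate 2. The mitochondrial median became 0.25 without WT IP replicate 3, 0.24 without KO Input replicate 3, 0.19 without KO IP replicate 2, 0.14 without WT Input replicate 2, 0.08 without WT Input replicate 1, and 0.03 without both arrays of wild-type preparation 1.

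**Figure D3:**
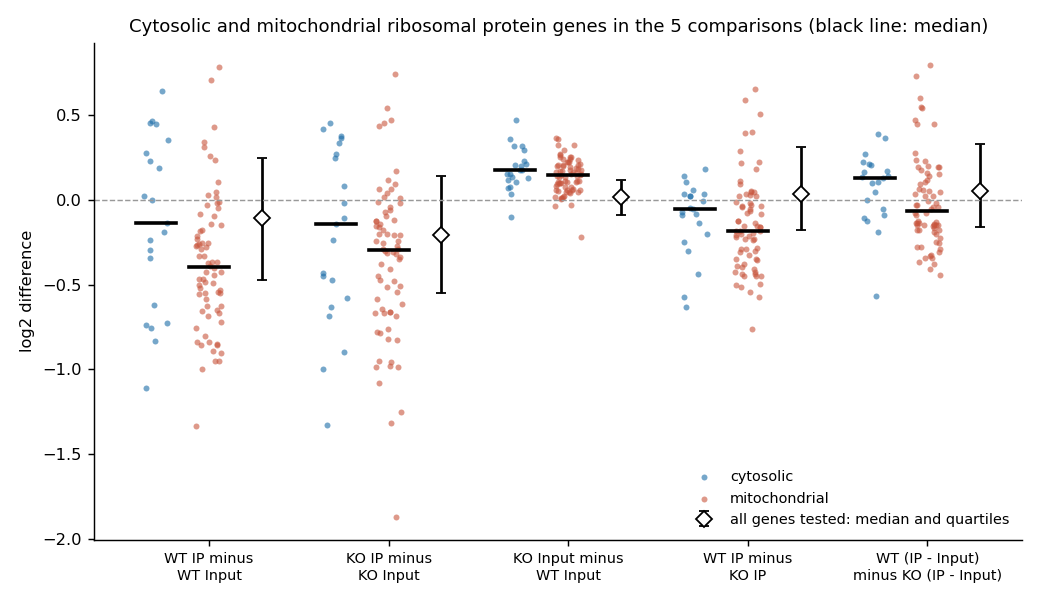
Log2 difference (y axis) of every tested member in the 5 comparisons (x axis), cytosolic in blue and mitochondrial in red. Points are genes, black lines are the medians of each set, and diamonds with bars are the median and quartiles of all genes tested. The mitochondrial median lies farthest from 0 in the precipitate against input comparisons (-0.40 and -0.30), and the cytosolic median in KO Input against WT Input (0.17).

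In total RNA, ribosomal protein mRNAs of both kinds had slightly higher values in knockout than in wild-type hepatocytes. For KO Input against WT Input, 20 of the 21 cytosolic genes (95.2%) and 69 of the 72 mitochondrial genes (95.8%) had a difference above 0, against 53.9% of all genes. Lists of genes that work with the ribosome, described below, had 69.6% to 93.8% of their genes above 0. The shifts were small: the cytosolic median was 0.17 (range -0.10 to 0.47), the mitochondrial median was 0.14 (range -0.22 to 0.37), and that of all genes was 0.02. At the 3 replicate numbers the cytosolic median was 0.17, 0.05 and 0.21 and the mitochondrial median was 0.11, 0.09 and 0.25, while that of all genes was -0.01, 0.02 and 0.02. KO Input was the higher at all 3 numbers for 15 cytosolic (71.4%) and 39 mitochondrial members (54.2%), against 16.1% of all genes, and it was the lower at all 3 for 0 members, against 13.0% of all genes. In bulk RNA of this kind a different share of cells and a different amount of RNA per cell cannot be told apart.

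No member passed the limma test of KO Input against WT Input, with or without the block, and neither did any other gene (0%). At an unadjusted p under 0.05 there were 0 members in both fits, against 0.0316% of all genes higher and 0.0211% lower without the block, and 0.242% and 0.316% with it. The arrays did not overlap for 1 cytosolic and 0 mitochondrial members, against 0.663% of all genes wholly higher and 0.958% wholly lower. That member was Rpl31, with 7.86, 8.27 and 7.87 in KO Input, against 7.71, 7.81 and 7.54 in WT Input, a difference of 0.32 ± 0.30. Rps4l was 11.44, 11.15 and 10.42 in KO Input, against 10.98, 11.12 and 9.83 in WT Input. It was higher at every replicate number, by 0.03 to 0.59, within a spread between numbers that was larger than that. Rps6 was 10.17, 10.42 and 9.35 in KO Input, against 9.96, 10.05 and 8.997 in WT Input, a difference of 0.32 ± 0.43. Mrps9 was 9.02, 8.80 and 8.97 in KO Input, against 8.85, 8.47 and 8.75 in WT Input, a difference of 0.24 ± 0.24. Mrpl42 and Mrpl55 differed by 0.37 and 0.23. The 4 members with a difference below 0 were Mrpl18 at -0.22, Rpl22 at -0.10, Mrps25 at -0.04 and Mrps27 at -0.03. The arrays of number 3 bore on these medians: without WT Input replicate 3 the cytosolic median was -0.09 and the mitochondrial median -0.16, and without KO Input replicate 3 they were 0.40 and 0.41. Without KO Input replicate 2 the mitochondrial median was -0.05. A fit without 1 array compares inputs with unlike replicate numbers. Between inputs of the same number the medians of both sets were all positive, but the titles do not pair these numbers between genotypes.

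**Figure D4:**
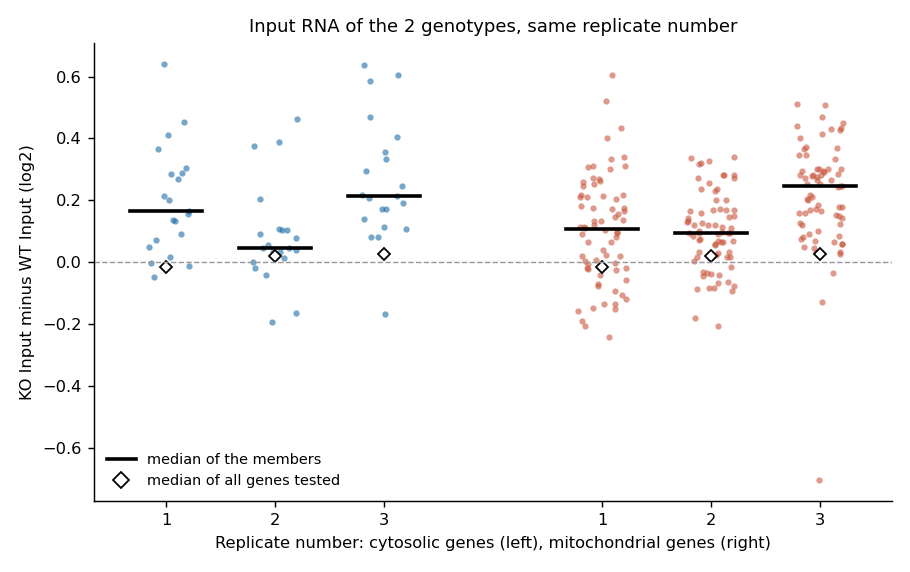
KO Input minus WT Input (y axis, log2) for arrays of the same replicate number (x axis), cytosolic and mitochondrial members. Points are genes, black lines are the medians of each set and diamonds are the median of all genes tested. The medians are 0.17, 0.05 and 0.21 for cytosolic and 0.11, 0.09 and 0.25 for mitochondrial members.

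The members' values also differed by replicate number. Arrays of the same number in different groups deviated together: after group means were removed, the correlation across the members was 0.365 to 0.867 for the same number and -0.538 to -0.0292 for different numbers. The deviations of the 3 arrays of a group then sum to 0, so the negative values follow from the positive ones and add nothing to them. Replicate 3 was the lowest of the 3 in all 4 groups for 14 of 21 cytosolic members (66.7%) and 45 of 72 mitochondrial members (62.5%), against 20.3% of all genes. The median range between the means of the 3 numbers was 0.80 for cytosolic and 0.99 for mitochondrial members, against 0.78 for all genes. The median size of the wild-type precipitate minus input difference was 0.35 and 0.43 in the 2 sets. Mrpl12, a stalk protein that also binds mitochondrial RNA polymerase, shows this pattern: it was 11.21, 10.86 and 9.52 in WT IP, 11.54, 10.93 and 9.98 in KO IP, 11.48, 11.39 and 10.31 in KO Input, and 11.22, 11.48 and 10.17 in WT Input. Its difference was -0.43 for WT IP against WT Input and -0.25 for KO IP against KO Input. Rplp2, the P2 protein of the cytosolic stalk that recruits translation factors, was 13.54, 13.65 and 13.27 in WT IP, 13.49, 13.62 and 13.29 in KO IP, 13.66, 13.81 and 13.35 in KO Input, and 13.53, 13.71 and 13.24 in WT Input. Its order of numbers was the same in every group, and its difference for WT IP against WT Input was -0.00 ± 0.26. Mrps12, at the decoding centre of the mitochondrial small subunit, and Mrps16, mutated in a human respiratory chain deficiency, differed by -0.38 and -0.05 in wild type and by -0.13 and -0.07 in knockout. Rps6 differed by -0.75 in wild type and -0.63 in knockout, and did not pass with the block (limma adjusted p = 0.117 and 0.171).

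**Figure D5:**
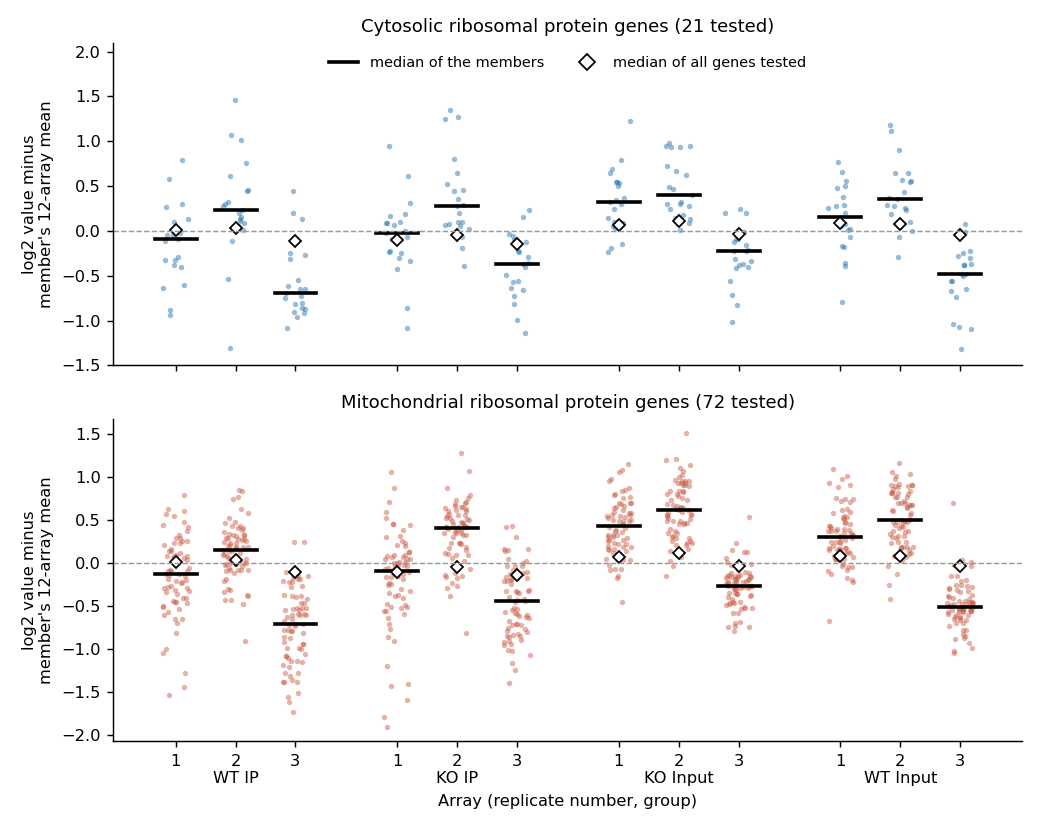
Log2 value minus the member's own mean over 12 arrays (y axis) for each array (x axis), with cytosolic genes in the upper and mitochondrial genes in the lower panel. Points are genes, lines are the medians of the set and diamonds are the median of all genes tested. Replicate 3 is lowest in each group for both sets, with medians of -0.69 and -0.71 in WT IP and -0.48 and -0.51 in WT Input.

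Genes that work with the ribosome had medians of the same sign as those of all genes for precipitate against input and between inputs. Several of these medians lay near those of all genes. For WT IP against WT Input the medians were -0.39 for 27 cytosolic translation factors, -0.20 for 23 mitochondrial translation factors, -0.17 for 46 ribosome assembly factors, -0.12 for 16 mitochondrial ribosome assembly factors and -0.29 for 4 mitochondrial ribosome genes outside the symbol rule, against -0.11 for all genes. For KO IP against KO Input the medians of these lists were -0.27, -0.17, -0.22, -0.31 and -0.25, against -0.21 for all genes. No gene of these 5 lists was called without the block in either comparison. With the block 1, 2, 2, 1 and 0 were called lower in wild type, and 2, 1, 4, 1 and 0 in knockout, which is 0% to 8.7% of a list in either genotype, against 4.61% and 5.28% of all genes. For KO Input against WT Input the medians were 0.09, 0.02, 0.11, 0.08 and 0.14, against 0.02 for all genes. The shares above 0 were 85.2%, 69.6%, 78.3%, 93.8% and 75%, against 53.9% of all genes. Between the precipitates (WT IP against KO IP) they were -0.17, -0.10, -0.03, -0.08 and -0.21, of the opposite sign to the 0.04 of all genes. After the inputs were subtracted they were -0.09, 0.04, 0.11, 0.09 and -0.10, against 0.05 for all genes.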

How the data were processed

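The deposited values are log2 expression values, 1 per probe set of a gene-based chip definition. How the authors corrected, normalized and summarised them is not stated in the sources used. Of 16539 probe sets 15780 carried 1 gene symbol, 64 were controls and 695 others were unnamed; 15752 Entrez identifiers matched RefSeq GRCm38.p6. Genes whose 12-array mean reached the 40th percentile were tested (9496). On these values limma 3.58.1 (R 4.3.3, statmod 1.5.0) fitted the differences, with 4 group means (8 residual degrees of freedom) and Benjamini-Hochberg adjustment. Errors after ± are standard errors of that fit, and tests are two-sided. That fit does not pair precipitate with input, so its errors include the shift between replicate numbers.

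The replicate block was the preparation in comparisons of precipitate with input, the interaction included (4 degrees of freedom), and the replicate number between genotypes (6). The series text pairs precipitates with inputs. Arrays of different groups with the same number correlated after group means were removed (18 pairs, 0.453 to 0.936 over all genes). These pairs include each precipitate with its own input, so the range is not one between genotypes alone. All 12 arrays correlated best with an array of their own number, which can be the partner from the same preparation. For each set, direction and comparison the text names up to 6 called members, filled to 3 by the smallest p, and members that are named throughout; others were named after their values were seen, for their place in a count. Members and lists were chosen with earlier results of these data known. The number of arrays limits the precision. Figures used Python 3.11.15 and matplotlib 3.10.9.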

Additional observations from a re-analysis of the deposited data

How the results depend on the processing

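Fits with quantile normalization, centred array medians, no filter or a filter at the 60th percentile, the replicate block, quantile normalization with the block, no paralogs, and each array or replicate number left out were run. No member was called in any comparison in the fits without the block. With the replicate block the counts were 1 cytosolic and 6 mitochondrial in wild-type precipitate against input and 3 and 6 in knockout, and with quantile normalization too they were 0 and 1 in wild type. Leaving out 1 preparation with the block gave 0 to 1 mitochondrial calls in knockout. With quantile normalization, alone or with the block, the cytosolic minus mitochondrial median was 0.16 in wild type and -0.00433 in knockout, the knockout mitochondrial median was -0.083, and the median of all genes was -0.04 in both genotypes. The interaction's cytosolic median was then 0.062, and it was 0.070 without the filter and 0.075 with centred medians. Without paralogs, pseudogenes and binding proteins the wild-type cytosolic median was 0.0087 and its distance to the mitochondrial median 0.42. With each array or number left out, the cytosolic, mitochondrial and cytosolic minus mitochondrial medians ran from -0.39 to 0.11, -0.69 to -0.13 and 0.17 to 0.39 in wild-type precipitate against input, from -0.44 to -0.0046, -0.54 to -0.13 and 0.078 to 0.25 in knockout, from -0.092 to 0.40, -0.16 to 0.41 and -0.017 to 0.10 between inputs, from -0.31 to 0.17, -0.39 to 0.090 and 0.0020 to 0.25 between precipitates, and from -0.17 to 0.39, -0.38 to 0.25 and 0.093 to 0.29 in the interaction. Named genes whose sign turned, none of which had passed, were Rps3 in knockout (-0.017 to 0.80), Rps4l (-0.048 to 0.65), Rps6 (-0.020 to 0.63), Rpl22 (-0.47 to 0.29), Mrpl18 (-0.62 to 0.025), Mrps25 (-0.15 to 0.036) and Mrps27 (-0.42 to 0.30) between inputs, Rpl13a (-0.10 to 0.45), Rpl17 (-0.14 to 0.39) and Rps14 (-0.073 to 0.28) between precipitates, and Rpl31 (-0.019 to 0.53), Rps24-ps3 (-1.0038 to 0.088), Rpl22 (-0.56 to 0.21) and Rps6 (-0.46 to 0.21) in the interaction. Fits without 1 array also compare groups with unlike replicate numbers. The cause of these shifts was not tested.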
